A study of Triticum turgidum subsp. durum with 4 samples.

Results

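The copper-linked miRNAs of durum wheat seedlings described here are the sequences that are named as miR397, miR408, miR528 or miR857 of any species, variants included. They were chosen by name, though with earlier results of these data known, and 1 row was kept for each different sequence. This gave 8 of the 2111 different sequences analysed, of which 4 belonged to miR397, 2 to miR408 and 2 to miR528, while no miR857 was among the entries analysed here. Small RNA was sequenced from shoots of 12-day-old seedlings grown from 4 groups of seed. SWH seedlings were L6, a breeding line sensitive to stress, from parents exposed to water deficit and heat. SCG seedlings were L6 from unstressed parents. TWH seedlings were DBA Aurora, a stress-tolerant commercial variety, from parents exposed to water deficit and heat, and TCG seedlings were DBA Aurora from unstressed parents. The seedlings of all 4 groups were themselves grown without stress. Each library was 1 pool of RNA from 8 seedlings, so no spread between seedlings or pools can be given.

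In plants these families act on proteins that bind copper. miR397 cleaves transcripts of laccases, the oxidases that polymerise lignin, miR408 those of plantacyanins and of some laccases, and miR857, known from Arabidopsis, those of a laccase. miR528, a family of monocots, acts on ascorbate oxidase and other copper proteins in rice and maize. In Arabidopsis the factor SPL7 switches on miR397, miR398, miR408 and miR857 when copper is scarce, which spares copper for plastocyanin of the photosynthetic electron chain.

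The 8 sequences are shown because every later value belongs to 1 of them. They are the deposited reads, 5′ to 3′ and written as DNA, with the seed (bases 2 to 8) in capitals. The prefix of a name gives the species of the closest miRBase entry (tae, bread wheat; hvu, barley; ata, Aegilops tauschii) and not the source of the RNA.
tae-MIR397-p5: tTGAGTGCagcgttgatgaac
tae-miR397-5p: tCACCGGCgctgcacacaatg
hvu-MIR397b-p5: tGCAGCGCcggtgaaccgctc
hvu-MIR397b-p3_1ss15CT: aACGCTGCactcaatggcacc
tae-miR408_L-1: tGCACTGCctcttccctggc
ata-miR408-5p_1ss20GA: cAGGGATGgagcagagcaaag
ata-miR528-5p: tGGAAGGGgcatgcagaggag
ata-miR528-3p_1ss4GC: cCTCTGCCtgcctcttccatt

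No seed was shared between any of the 8 sequences. Of the 8, 7 were 21 nt long, against 36.2% of all 2111 sequences, and 5 began with T, against 43.5%. The other one, tae-miR408_L-1, was 20 nt long and lacked the first base of the miRBase sequence tae-miR408. Counted from the 5′ end, ata-miR528-3p_1ss4GC differed from its miRBase entry by G4C, hvu-MIR397b-p3_1ss15CT by C15T and ata-miR408-5p_1ss20GA by G20A (entry base, position, read base). The 4B precursor itself held the base of the ata-miR528-3p_1ss4GC read, and the 6B precursor that of the hvu-MIR397b-p3_1ss15CT read, since both reads matched them without a mismatch. The 7A precursor did not, as ata-miR408-5p_1ss20GA differed from it by the same G20A. A sequencing error was not tested for this change.

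Each sequence is placed at its deposited locus, and other copies in the genome were not searched for. The miR528 reads were assigned to a hairpin at chr4B:616996559-616996666 on the plus strand of the durum genome Svevo.v1. It is shown because both of its arms were recorded in every library, and the balance between them is described further on. The arms are in capitals.
ata-MIR528 hairpin, 4B: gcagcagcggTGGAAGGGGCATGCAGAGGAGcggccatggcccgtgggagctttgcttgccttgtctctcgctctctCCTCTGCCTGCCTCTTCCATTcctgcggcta
In the deposited fold, 20 of the 21 bases of ata-miR528-5p and 19 of the 21 bases of ata-miR528-3p_1ss4GC were paired, and each strand of the duplex had a 3′ overhang of 2 nt, the geometry of a Dicer-like cut. No annotated gene overlapped the hairpin, and the nearest, TRITD_4Bv1G183630, lay 9.85 kb away.

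The miR397 sequences were assigned to a 93 nt hairpin at chr6A:105175517-105175609 on the minus strand and a 110 nt hairpin at chr6B:163008700-163008809 on the plus strand. Neither hairpin overlapped an annotated gene. The pair is shown because the deposited orientation of the 6B hairpin is opposite to that of the 6A hairpin. The recorded arms are again in capitals.
tae-MIR397 hairpin, 6A: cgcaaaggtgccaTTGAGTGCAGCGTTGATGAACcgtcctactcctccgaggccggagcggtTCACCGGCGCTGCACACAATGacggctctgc
hvu-MIR397b hairpin, 6B: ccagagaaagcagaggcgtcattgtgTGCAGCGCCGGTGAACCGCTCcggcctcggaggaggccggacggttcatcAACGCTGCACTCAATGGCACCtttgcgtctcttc
The 6A hairpin and the reverse complement of the 6B hairpin shared a run of 45 bases, whereas the longest run shared as written was 9 bases. Both 6A reads lay in the 6B hairpin as reverse complements, and both 6B reads lay in the 6A hairpin as reverse complements. Accordingly hvu-MIR397b-p3_1ss15CT was antisense to tae-MIR397-p5 over 14 bases (ttgagtgcagcgtt) and hvu-MIR397b-p5 was antisense to tae-miR397-5p over 14 bases (tcaccggcgctgca). The 6A duplex had 3′ overhangs of 2 nt at both ends, and the 6B pair of reads overhung by 12 nt at both ends. tae-miR397-5p lay on the 3′ arm of the 6A hairpin, beginning at base 63 of 93, in spite of its name. The nearest genes were TRITD_6Av1G045070 at 124 bp and TRITD_6Bv1G058120 at 87 bp.

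The miR408 sequences were assigned to 7A. ata-miR408-5p_1ss20GA was assigned to a 175 nt hairpin at chr7A:657113444-657113618 on the minus strand, where it matched from base 14 with 1 mismatch. tae-miR408_L-1 was assigned to a 129 nt sequence at chr7A:657113453-657113581 that the authors placed among those without a proper hairpin, but its 20 bases also lay at bases 147 to 166 of the longer hairpin, on the 3′ arm opposite ata-miR408-5p_1ss20GA. The deposited windows overlapped over all 129 bp of the shorter one. Their sequences, however, shared only a run of 31 bases, which began at base 145 of the longer and at base 1 of the shorter, so the shorter sequence ran on beyond the end of the longer one while its deposited window lay inside it. The nearest gene to both was TRITD_7Av1G248230, 8.29 kb from the longer window. None of the 8 sequences lay in the precursor of a family other than its own.

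The 4 libraries held 855716 to 1293324 miRNA reads, which was 7.87% to 8.72% of the clean reads of a library. Levels are the authors' normalised counts, equal to the read number times 1 factor per library (1.20 in SWH, 0.833 in SCG, 0.946 in TWH and 1.04 in TCG), and the intervals are 95% Poisson intervals for counting error only, since PCR copies cannot be recognised. Almost no value under 5 reads was recorded, so a 0 means fewer than about 5 reads. Together the 8 sequences reached 584 normalised counts in SWH, 725 in SCG, 658 in TWH and 597 in TCG, which was 0.0569%, 0.0673%, 0.0634% and 0.0580% of the miRNA reads of these libraries. Of the 8, 6 were recorded in all 4 libraries, against 63.1% of all 2111 sequences.

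Among the 4 miR397 sequences, whose targets were not searched here, tae-MIR397-p5 from the 5′ arm of the 6A hairpin was the most abundant. It had 302 normalised counts in SWH (interval 266 to 342, 252 reads), 341 in SCG (308 to 375, 409 reads), 327 in TWH (294 to 364, 346 reads) and 349 in TCG (313 to 388, 337 reads). All 4 intervals overlapped, and it held the top place among the 8 sequences in every library and places 186 to 194 among all sequences. The authors listed the read as new against miRBase and named it as the 5′ arm product of the tae-MIR397 precursor. Its overlap with mature miR397 sequences of other species was not searched here. The level of tae-MIR397-p5 was the flattest of the family across the 4 libraries.

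Its partner on the 3′ arm, tae-miR397-5p, had 25.2 normalised counts in SWH (interval 15.6 to 38.5, 21 reads), 56.6 in SCG (44.0 to 71.8, 68 reads), 38.8 in TWH (27.8 to 52.6, 41 reads) and 50.7 in TCG (37.5 to 67.1, 49 reads). SWH was the lowest library and did not overlap SCG, while DBA Aurora lay between them with overlapping intervals. On the 6B hairpin hvu-MIR397b-p5 had 15.6 normalised counts in SWH (13 reads), 16.7 in SCG (20 reads), 30.3 in TWH (32 reads) and 23.8 in TCG (23 reads). Both L6 libraries were below both DBA Aurora libraries, but all 4 intervals overlapped.

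The opposite arm, hvu-MIR397b-p3_1ss15CT, was recorded only in L6, with 5.99 normalised counts in SWH (5 reads) and 10.8 in SCG (13 reads), and was listed at 0 in TWH and TCG. A level of 5 reads would be 4.73 normalised counts in TWH and 5.18 in TCG, so absence from DBA Aurora is not shown. Since it is antisense to tae-MIR397-p5, reads of the 2 can be told apart only by sequence and not by locus. The 4 sequences named miR397 summed to 349 normalised counts in SWH, 425 in SCG, 396.6 in TWH and 423 in TCG. This sum goes by name, and its sequences from the 6B hairpin were antisense to the 6A hairpin.

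**Figure D1:**
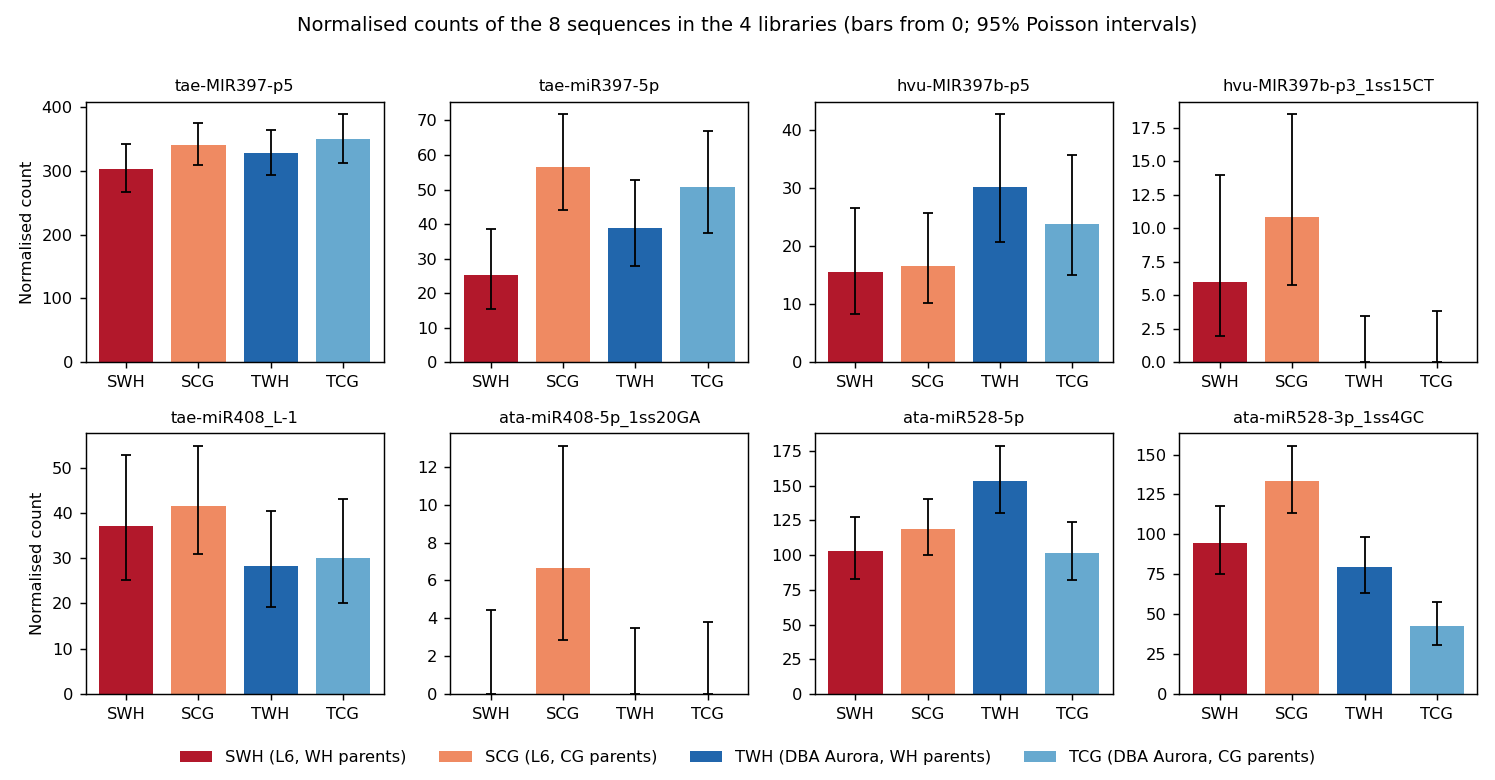
Normalised counts (y axis, each panel on its own scale from 0) of the 8 sequences in SWH, SCG, TWH and TCG, with 1 library per bar and 95% Poisson intervals. tae-MIR397-p5 sat between 302 and 349 in all libraries, ata-miR528-3p_1ss4GC between 42.4 in TCG and 133 in SCG, and hvu-MIR397b-p3_1ss15CT was recorded only in the L6 libraries.

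Of miR408, the regulator of plantacyanin, tae-miR408_L-1 had 37.2 normalised counts in SWH (interval 25.2 to 52.7, 31 reads), 41.6 in SCG (30.9 to 54.9, 50 reads), 28.4 in TWH (19.2 to 40.5, 30 reads) and 30.0 in TCG (20.1 to 43.1, 29 reads). The L6 libraries were above those of DBA Aurora, with all intervals overlapping. The other arm, ata-miR408-5p_1ss20GA, was recorded in SCG alone, with 6.66 normalised counts (8 reads), and was listed at 0 in SWH, TWH and TCG. This is close to the recording minimum, which is 5.99 normalised counts in SWH.

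For miR528, the monocot family that acts on ascorbate oxidase, ata-miR528-5p had 103 normalised counts in SWH (interval 82.5 to 127, 86 reads), 119 in SCG (100 to 140, 143 reads), 153 in TWH (131 to 179, 162 reads) and 101 in TCG (82.4 to 124, 98 reads). TWH was the highest library and its interval was clear of those of SWH and TCG. The other arm, ata-miR528-3p_1ss4GC, had 94.7 normalised counts in SWH (75.0 to 118, 79 reads), 133 in SCG (113 to 156, 160 reads), 79.5 in TWH (63.4 to 98.4, 84 reads) and 42.4 in TCG (30.5 to 57.6, 41 reads). TCG was the lowest library, and its interval overlapped none of the other 3. Both arms summed to 198 normalised counts in SWH, 252 in SCG, 233 in TWH and 144 in TCG.

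The order of the sequences differed little between libraries below tae-MIR397-p5. ata-miR528-5p was in place 2 in SWH, TWH and TCG, and ata-miR528-3p_1ss4GC was in place 2 in SCG, where the intervals of both arms overlapped. ata-miR528-3p_1ss4GC was in place 3 in SWH and TWH but in place 4 in TCG, behind tae-miR397-5p, and there its interval overlapped those of both neighbours. tae-miR397-5p, tae-miR408_L-1 and hvu-MIR397b-p5 shared the places below with mostly overlapping intervals, and hvu-MIR397b-p3_1ss15CT and ata-miR408-5p_1ss20GA were last in every library.

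The first comparison asked how seedlings from stressed parents differed from those of control parents within each genotype. The tests were those of the study, Fisher's exact test (two-sided) and a chi-squared 2 × 2 test of the normalised counts, each with p under 0.05. The study's call of a differentially expressed miRNA (DEM) rests on p alone. In what follows a sequence past both tests is called a fold-filtered DEM only if its log2 fold change was also beyond 1 in either direction, and a 0 in one of the libraries was taken to meet that fold. With 1 library per group these tests compare libraries and not seed groups, and they take in no error beyond counting. Because normalised counts and not reads entered them, their p-values only approximate the counting error of the reads. The 4 pairs of libraries below share libraries with one another, so they are not independent of each other.

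In DBA Aurora (TWH vs TCG), both miR528 arms were higher in seedlings from stressed parents. ata-miR528-3p_1ss4GC was higher by a log2 fold change of 0.91 (95% counting interval 0.35 to 1.48), with p = 0.000938 in the chi-squared test and p = 0.000751 in Fisher's exact test, and ata-miR528-5p by 0.60 (0.23 to 0.97), with p = 0.00165 in Fisher's exact test. After Benjamini-Hochberg adjustment over all sequences the Fisher's exact test gave adjusted p = 0.0071 and adjusted p = 0.0132 for these. Thus 2 of the 6 recorded sequences passed both tests, against 34.3% of 1977 sequences. Neither reached the fold criterion, so 0 were fold-filtered DEMs, against 22%. The other 4 recorded sequences passed neither test and had log2 fold changes of -0.09 for tae-MIR397-p5 (-0.31 to 0.13), -0.39 for tae-miR397-5p (-1.02 to 0.24), 0.35 for hvu-MIR397b-p5 (-0.47 to 1.19) and -0.08 for tae-miR408_L-1 (-0.87 to 0.71). The counting interval of tae-MIR397-p5 did not reach 1 log2 unit in either direction between these libraries, and that of tae-miR397-5p did. Neither interval covers differences between pools or seed groups.

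In L6 (SWH vs SCG) all 8 values were below 0, and 3 of them passed both tests. tae-miR397-5p, the 3′ arm of the 6A hairpin, was lower by a log2 fold change of -1.17 (-1.95 to -0.45), with p = 0.00112 in the chi-squared test, p = 0.000865 in Fisher's exact test and an adjusted p = 0.0108, and was a fold-filtered DEM. ata-miR528-3p_1ss4GC was lower by -0.49 (-0.90 to -0.09), with p = 0.0339 in Fisher's exact test, but with an adjusted p = 0.124. ata-miR408-5p_1ss20GA met the criteria of a fold-filtered DEM because it was listed at 0 in SWH against 8 reads in SCG (Fisher's exact test, p = 0.0158), a difference that against 5 reads is at least 1.11-fold lower. Adjustment ended this call, with an adjusted p = 0.0702 in Fisher's exact test and 0.0549 in the chi-squared test. The 3 of 8 sequences past both tests stand against 29.1% of 1967 sequences, and the 2 fold-filtered DEMs against 19.4%.

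The remaining 5 sequences passed neither test in SWH vs SCG. Their log2 fold changes were -0.17 for tae-MIR397-p5 (-0.41 to 0.06), -0.21 for ata-miR528-5p (-0.61 to 0.19), -0.16 for tae-miR408_L-1 (-0.86 to 0.51), -0.10 for hvu-MIR397b-p5 (-1.23 to 0.98) and -0.85 for hvu-MIR397b-p3_1ss15CT (-2.69 to 0.73). The arm of the 6A hairpin with most reads thus moved little while its partner was lower. The median of log2((count + 1)/(count + 1)) over the recorded sequences was -0.35 in SWH vs SCG, against -0.08 over all sequences, and 0.13 in TWH vs TCG, against -0.01.

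**Figure D2:**
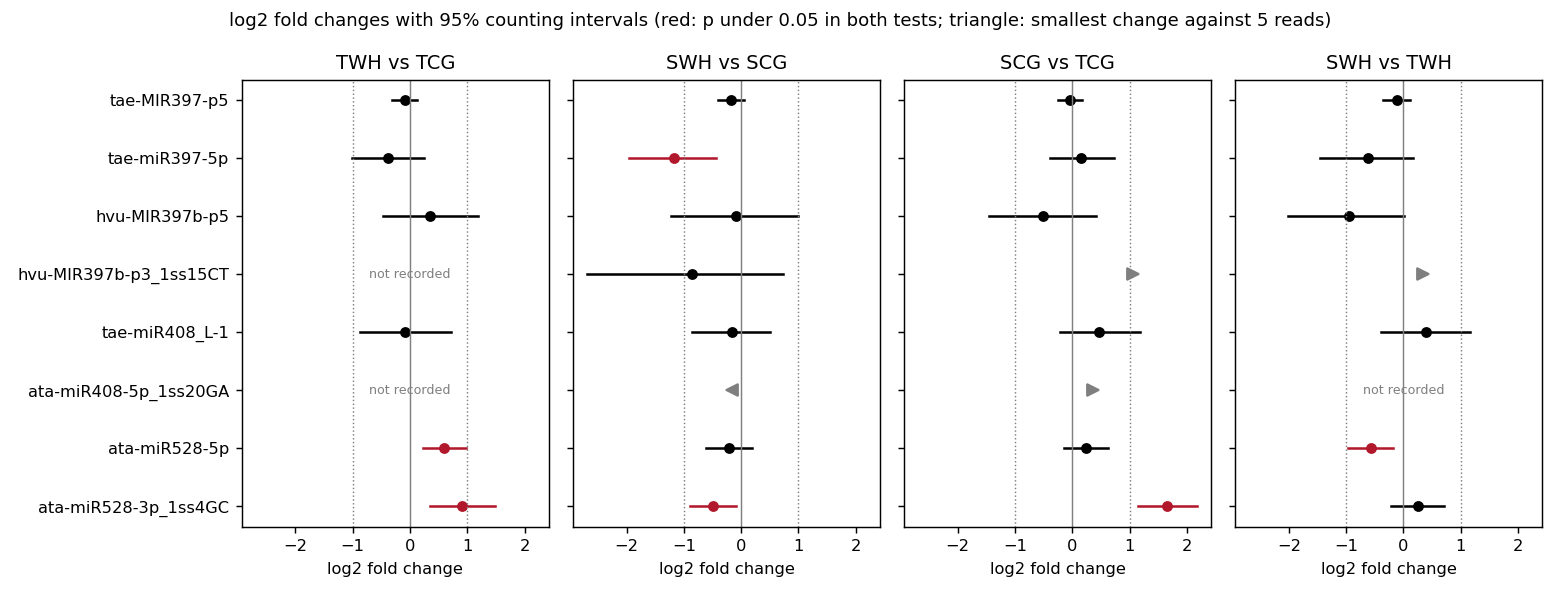
Log2 fold changes (x axis) of the 8 sequences (y axis) in the 4 pairs of libraries, with 95% counting intervals. Red marks p under 0.05 in both tests, and dotted lines mark a log2 fold change of 1 in either direction. Grey triangles mark the smallest change against 5 reads where 1 library was listed at 0. They are grey although each of them passed both tests. Both miR528 arms lay right of 0 in TWH vs TCG and left of 0 in SWH vs SCG, where tae-miR397-5p reached -1.17.

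The second comparison set the genotypes against each other among seedlings from the same kind of parents. From control parents (SCG vs TCG), ata-miR528-3p_1ss4GC was 3.14-fold higher in L6, a log2 fold change of 1.65 (1.15 to 2.18), with p = 5.75e-11 in the chi-squared test, p = 1.87e-11 in Fisher's exact test and an adjusted p = 2.71e-10. The other arm of the same hairpin, ata-miR528-5p, had a log2 fold change of 0.23 (-0.15 to 0.62) and passed neither test. hvu-MIR397b-p3_1ss15CT was an up-regulated fold-filtered DEM at 13 reads in SCG against 0 in TCG (Fisher's exact test, p = 0.001), at least 2.09-fold higher against 5 reads, and ata-miR408-5p_1ss20GA was 1 at 8 reads against 0 (Fisher's exact test, p = 0.0158), at least 1.29-fold higher.

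All 3 of these sequences passed both tests and were fold-filtered DEMs, against 43.6% of 2039 sequences that passed both tests and 30.2% that were fold-filtered DEMs. A share of 3 in 8 was near the background. The other 4 had log2 fold changes of -0.03 for tae-MIR397-p5 (-0.25 to 0.18), 0.16 for tae-miR397-5p (-0.39 to 0.72), -0.52 for hvu-MIR397b-p5 (-1.46 to 0.41) and 0.47 for tae-miR408_L-1 (-0.22 to 1.18). tae-MIR397-p5 had the narrowest interval, and the sign of its value was positive with other scalings of the libraries, at 0.013 with TMM factors and 0.048 with clean reads.

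From stressed parents (SWH vs TWH), ata-miR528-5p was lower in L6 by a log2 fold change of -0.57 (-0.97 to -0.19), with p = 0.00264 in Fisher's exact test and an adjusted p = 0.014, whereas ata-miR528-3p_1ss4GC had a log2 fold change of 0.25 (-0.21 to 0.71) and passed neither test. hvu-MIR397b-p3_1ss15CT was the only fold-filtered DEM, up-regulated at 5 reads in SWH against 0 in TWH (Fisher's exact test, p = 0.0151), at least 1.27-fold higher. hvu-MIR397b-p5 had a log2 fold change of -0.96 (-2.01 to 0.01) and passed the chi-squared test (p = 0.0331) but not Fisher's exact test (p = 0.0543). Of the 7 recorded sequences 2 passed both tests, 1 in each direction, against 42.9% of 1985 sequences, and 1 was a fold-filtered DEM, against 29.8%.

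Of the other 3 recorded sequences in SWH vs TWH, tae-miR397-5p had a log2 fold change of -0.62 (-1.46 to 0.17), tae-MIR397-p5 of -0.12 (-0.36 to 0.12) and tae-miR408_L-1 of 0.39 (-0.38 to 1.16). The median over the recorded sequences was -0.12 in SWH vs TWH, against -0.09 over all sequences, and 0.34 in SCG vs TCG, against 0.00. tae-miR408_L-1 was above 0 in both comparisons of genotypes, with intervals that held 0 in each.

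**Figure D3:**
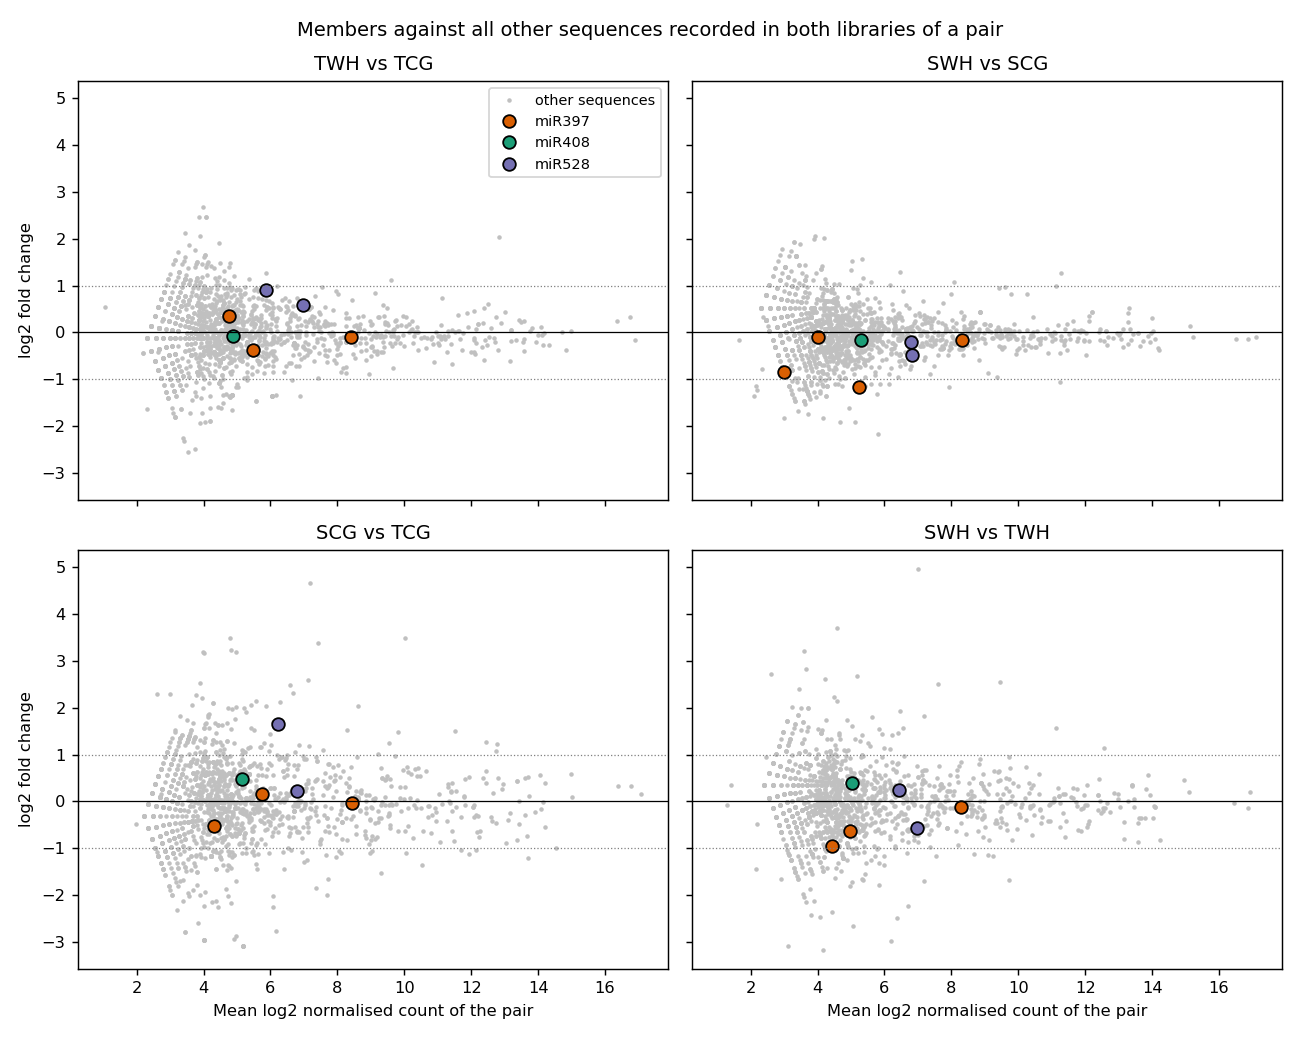
Log2 fold change (y axis) against the mean log2 normalised count of the pair (x axis) for all sequences recorded in both libraries of each pair, with miR397, miR408 and miR528 in colour. The coloured points lay within the cloud of other sequences at their level, and the highest of them was ata-miR528-3p_1ss4GC in SCG vs TCG at 1.65.

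The values of miR528 in seedlings from stressed over control parents had opposite signs in the libraries of the 2 genotypes, although ata-miR528-5p passed neither test in L6 and ata-miR528-3p_1ss4GC did not pass there after adjustment. For ata-miR528-3p_1ss4GC the log2 fold change was -0.49 in L6 and 0.91 in DBA Aurora, a difference of -1.40 (-2.06 to -0.73), and for ata-miR528-5p it was -0.21 in L6 and 0.60 in DBA Aurora, a difference of -0.80 (-1.33 to -0.27). These intervals hold counting error only, and the difference could not be tested over replicates. Among 1218 sequences recorded in all libraries and averaging 10 or more normalised counts, 10.02% had a difference at least as large as that of ata-miR528-3p_1ss4GC and 31.7% one at least as large as that of ata-miR528-5p, with a median absolute difference of 0.49. For tae-miR397-5p the difference was -0.78 (-1.71 to 0.14), and for tae-MIR397-p5 and tae-miR408_L-1 it was -0.08 in each.

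The balance of the 2 arms of a hairpin is a ratio within 1 library and does not depend on the scaling between libraries. At the 4B hairpin, 52.1% of the reads of both arms came from the 5′ arm in SWH (exact binomial 95% interval 44.2 to 59.9, 165 reads), 47.2% in SCG (41.5 to 53.0, 303 reads), 65.9% in TWH (59.6 to 71.8, 246 reads) and 70.5% in TCG (62.2 to 77.9, 139 reads). The arms were near parity in both L6 libraries and favoured the 5′ arm in both DBA Aurora libraries. Intervals were apart in SCG vs TCG and met in SWH vs TWH. The log2 ratio of the 5′ to the 3′ arm changed by -1.42 in SCG vs TCG and by -0.83 in SWH vs TWH. Of 146 hairpins with both arms recorded, 13.7% changed at least as much in SCG vs TCG, where the median absolute change was 0.65, and 30.1% did in SWH vs TWH.

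At the 6A hairpin the 5′ arm took 92.3% of the reads in SWH (88.5 to 95.2), 85.7% in SCG (82.3 to 88.8), 89.4% in TWH (85.9 to 92.3) and 87.3% in TCG (83.6 to 90.5). Dominance of tae-MIR397-p5 was thus common to all libraries and highest in SWH, and the intervals of SWH and SCG met. The change of the log2 arm ratio in SWH vs SCG was 0.996, and 9.59% of the 146 hairpins changed at least as much, with a median absolute change of 0.27. At the 6B hairpin the 5′ arm took 72.2% of 18 reads in SWH and 60.6% of 33 in SCG. It took 100% of 32 in TWH and of 23 in TCG, where the 3′ arm was under the recording minimum. The 6B pair of reads overhung by 12 nt at both ends, unlike the 6A duplex. At the 7A hairpin the 3′ arm carried nearly all reads, with 13.8% of 58 reads on the 5′ arm in SCG and none recorded there in the other 3 libraries.

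**Figure D4:**
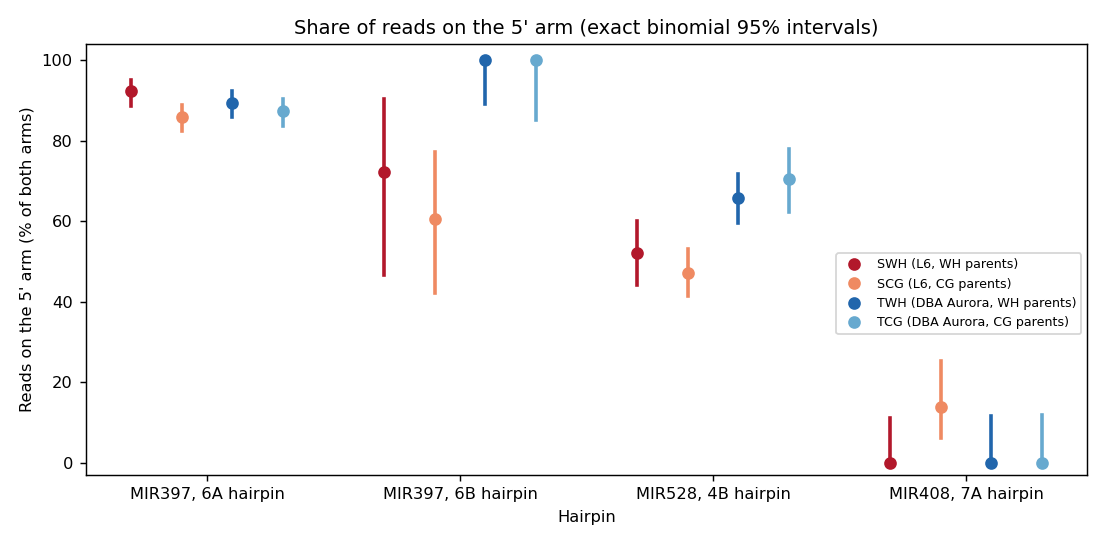
Share of the reads of both arms that lay on the 5′ arm (y axis, percent) at 4 hairpins (x axis) in SWH, SCG, TWH and TCG, with exact binomial 95% intervals. At the MIR528 hairpin the L6 libraries sat at 52.1% and 47.2% and the DBA Aurora libraries at 65.9% and 70.5%, while at the MIR397 hairpin of 6A all libraries were between 85.7% and 92.3%.

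A fit over all 4 libraries, with parent treatment and genotype as terms, called none of the 6 sequences that passed its filter on low counts. By edgeR's quasi-likelihood test with Benjamini-Hochberg adjustment, which had 1 residual degree of freedom, the parent effect was called for 0% of 1258 sequences (0 calls, 20 at an unadjusted p under 0.05, and 0 by DESeq2 or limma) and the genotype effect for 0.0795% (1 call, 174 at an unadjusted p under 0.05). None of the 6 had an unadjusted p under 0.05 for either effect in edgeR, DESeq2 or limma with this filter. The lowest were those of ata-miR528-3p_1ss4GC for genotype, with a log2 fold change of 0.94 in L6 over DBA Aurora (edgeR adjusted p = 0.386, from 0.0888 to 0.509 over the alternatives), and of tae-miR397-5p for parent treatment, with -0.70 in seedlings from stressed over control parents (edgeR adjusted p = 0.997, 0.986 or higher in every alternative). With 1 library left out no fit was run, and the value is that of the 1 pair left, as given above. The genotype value of ata-miR528-3p_1ss4GC was 1.65 (SCG vs TCG) without SWH or without TWH and 0.25 (SWH vs TWH) without SCG or without TCG. Its parent value was 0.91 (TWH vs TCG) without either L6 library and -0.49 (SWH vs SCG) without either DBA Aurora library. The parent value of tae-miR397-5p was -0.39 without either L6 library and -1.17 without either DBA Aurora library.

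miR398, which acts on copper/zinc superoxide dismutase and its chaperone, is the other family of the copper group and also had 8 different sequences. Its sum was 779 normalised counts in SWH, 1486 in SCG, 2357 in TWH and 3692 in TCG, so the libraries were ordered differently from miR397, miR408 and miR528. Of its 8 sequences, those past both tests were 5 lower and 0 higher in TWH vs TCG, and 5 lower and 0 higher in SWH vs SCG. They were 5 lower and 1 higher in SCG vs TCG, and 6 lower and 0 higher in SWH vs TWH. Over all sequences, 364 were lower and 314 higher of 1977 in TWH vs TCG, and 331 and 242 of 1967 in SWH vs SCG. In SCG vs TCG 486 were lower and 402 higher of 2039, and in SWH vs TWH 484 and 368 of 1985. By name, several miR398 sequences were variants of the same miRBase entry, such as osa-miR398a and osa-miR398a_L+1R-1, so they are not independent. The miR398 medians were -0.59, -1.08, -1.51 and -1.94 in these pairs. Those of the miR397, miR408 and miR528 sequences recorded in each pair (6, 8, 8 and 7 of 8) were 0.13, -0.35, 0.34 and -0.12. The most abundant, mtr-miR398a-5p_1ss7AC, had 471 normalised counts in SWH, 917 in SCG, 1516 in TWH and 2354 in TCG, and the least abundant, mtr-miR398a-5p_R-3_1ss17CA, had 5.68 in TWH and 6.21 in TCG and was listed at 0 in SWH and SCG. No test of the difference between these families was made.

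The sequences most like each member in pattern were taken as those with the smallest root mean square difference of centred log2 normalised counts over the 4 libraries, among 1218 sequences. For ata-miR528-3p_1ss4GC this was ata-MIR169d-p3 at 0.07, with 3533 normalised counts in SWH, 4936 in SCG, 2888 in TWH and 1742 in TCG. For ata-miR528-5p it was PC-5p-41945_51 at 0.03, a sequence without a miRBase match, so the arms of 1 hairpin had different nearest neighbours. The nearest were tae-miR5062-5p for tae-MIR397-p5 (0.02), tae-miR9654a-3p for tae-miR397-5p (0.04), tae-MIR1128-p5_2ss9AT21AG for hvu-MIR397b-p5 (0.03) and tae-MIR167c-p3 for tae-miR408_L-1 (0.02). With only 4 libraries and 1218 candidates, likeness of this size describes these libraries alone.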

How the data were processed

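Small RNA of pooled shoots was sequenced as 1 library per seed group (TCG, TWH, SCG, SWH). The authors ran ACGT101-miR (version: not given in the sources used here). They kept reads of 18 to 25 nt, discarded those that hit durum mRNA, RFam or Repbase, and aligned what was left to miRBase 22.1 (1 mismatch and end variation allowed) and to Svevo.v1. The raw numbers deposited are estimated counts (about 5% are not whole), and a value can stand for reads of several end variants. The normalised counts that the authors deposited are a signal, the raw number times 1 factor per library. Of the entries, 28 were blank and not analysed here. The 2174 entries left held 2149 names and 2111 different sequences. No deposited columns of comparisons were used.

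Tests ran over all different sequences, each against the sum of all others, and the fold criterion of a fold-filtered DEM was added to the study's tests. Raw reads rounded to whole numbers entered edgeR 4.0.16 (TMM, mean normalised count of at least 10, common dispersion 0.0454), with limma 3.58.1 (pseudocounts 1 and 5) and DESeq2 1.42.0 as alternatives, in R 4.3.3. Other statistics used scipy 1.17.1 in Python 3.11.15. Scripts were tested on simulated data. Further alternatives were p thresholds of 0.01 and 0.1, adjusted p-values, no fold criterion, a minimum count of 10, names as the unit, raw reads, TMM or clean-read scaling, libraries left out, and zeros taken as 4 reads (chosen after seeing the data). Every sequence that met the name rule was named, with the nearest sequence in pattern for those without a 0, and miR398 as the list of other copper miRNAs. The members and lists were chosen with earlier results of these data known. Chromosome names were assigned by matching the order of the Svevo.v1 sequences to a RefSeq gene table of that assembly, which also gave the nearest genes. Duplexes and overhangs were read from the deposited folds.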

Additional observations from a re-analysis of the deposited data

Results flagged for a closer look

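For 3 sequences the value in seedlings from stressed over control parents had opposite signs in L6 (SWH vs SCG) and DBA Aurora (TWH vs TCG), with 1 library in each group. The difference of the log2 fold changes, L6 minus DBA Aurora, was -1.40 for ata-miR528-3p_1ss4GC, -0.80 for ata-miR528-5p and -0.44 for hvu-MIR397b-p5. Of 1218 sequences, 10.02%, 31.7% and 54.3% had an absolute difference at least as large as these, in that order, with a median of 0.49. Both miR528 sequences are arms of the same hairpin, so they are not separate cases. The difference between genotypes was not tested over replicates. The counting interval of the difference was below 0 for both miR528 sequences and ran from -1.71 to 0.83 for hvu-MIR397b-p5.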

How the results depend on the processing

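Numbers of fold-filtered DEMs (past both tests and the fold) among the 8 sequences came out within 1.5 times the reported ones in 38 of 48 alternatives. In TWH vs TCG the 0 became 2 without the fold criterion. In SWH vs SCG the 2 became 1 at p under 0.01, with adjusted p-values, with zeros taken as 4 reads and with a minimum count of 10. In SCG vs TCG the 3 became 1 with zeros taken as 4 reads. In SWH vs TWH the 1 became 2 without the fold criterion, and 0 at p under 0.01, with zeros taken as 4 reads and with a minimum count of 10. With zeros taken as 4 reads, an alternative chosen after seeing the data, no call resting on a 0 passed the criteria, at log2 fold changes of -0.47 and 0.69 for ata-miR408-5p_1ss20GA (SWH vs SCG, SCG vs TCG) and 1.39 and 0.66 for hvu-MIR397b-p3_1ss15CT (SCG vs TCG, SWH vs TWH). The calls of tae-miR397-5p and ata-miR528-3p_1ss4GC involve no 0. The value of tae-MIR397-p5 in SCG vs TCG turned to 0.013 with TMM scaling and 0.048 with clean reads, and the cause was not tested. Over all sequences the genotype effect gave 1 call in edgeR, 2 with DESeq2 size factors, 35 in DESeq2, 11 and 8 in limma with pseudocounts of 1 and 5, and 138 in edgeR without the filter, and the parent effect gave 0 with the filter and 3 without, with 0 calls among the members in each. The alternatives for arm shares and for the order of levels could not change them, since each arm had 1 sequence and each library 1 factor, and are no check.

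No paired analysis was possible because each seed group has 1 library and the labels give no replicate numbers. Pooling of 8 seedlings hides variation between seedlings, sequences near 5 reads cannot be told from unrecorded ones, and extraction or sequencing differences between libraries cannot be told apart from seed group.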
